A study of Mus musculus with 6 samples.

Results

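FoxO transcription factors and a set of their known target genes were followed in mouse embryonic stem cells that lack both genes of glycogen synthase kinase-3, and in wild-type cells. The set holds 10 of the 18194 genes that the array annotation names: the factors Foxo1, Foxo3 and Foxo4, and the targets Bcl2l11, Bcl6, Ccng2, Fbxo32, Trib1, Sesn1 and Sesn3. Every probe set that the array annotation assigns to exactly 1 gene, that gene being in the set, was taken, which gave 29 of the 45101 probe sets. The double knockout cells (Gsk-3a-/-; Gsk-3b-/-, called DKO below) are labelled as homozygous knockouts of both kinase genes, and the wild-type cells are of the line E14K. Each genotype has 3 samples of total RNA, each on 1 Affymetrix mouse expression array. All cells grew on gelatin without feeder cells, and the medium held 15% serum and leukaemia inhibitory factor at 1000 units/ml. The labels leave unsaid whether the DKO samples come from more than 1 clone and whether each replicate is its own culture. The p-values therefore cover the spread of these 3 samples per genotype alone, and that spread may be technical. A difference between the lines that does not come from the loss of the kinases cannot be told apart from one that does.

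FoxO proteins are forkhead transcription factors at the end of the insulin and PI3K pathway. When PI3K is active, the kinase Akt phosphorylates FoxO, 14-3-3 proteins bind it, and it leaves the nucleus. When the pathway is quiet, FoxO stays on DNA and drives genes for apoptosis, cell cycle exit, protein breakdown and resistance to stress. Glycogen synthase kinase-3 is another substrate that Akt inhibits. In embryonic stem cells FoxO1 is also known for binding regulatory regions of pluripotency genes. The arrays measured transcripts, so phosphorylation and location of the FoxO proteins were not measured.

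The targeted genes were read first. The probe set of Gsk3a had log2 intensities of 7.18, 7.08 and 6.04 on the DKO arrays, against 8.65, 7.89 and 7.90 on the wild-type arrays. The groups did not overlap. The difference was -1.38 (SE 0.36) and missed the threshold (limma, adjusted p = 0.0942), which it met once the replicate number entered as a block (0.00646). The 5 tested probe sets of Gsk3b differed by -0.71 to -0.02, and 0 passed by limma, also with the block and at an unadjusted p of 0.05. Where these probe sets lie relative to the deleted parts was not known here. Pou5f1, Sox2 and Nanog, which define embryonic stem cells, differed by 0.18, -0.21 and -0.14 and did not pass. Spike-in controls of bacterial and phage origin averaged 9.49 and 9.88 on the arrays of DKO and wild-type replicate 3 and 1.70 to 1.87 on the other 4 arrays, so replicate 3 of either genotype was treated as a batch of its own; the labels name no batch. The log2 ratio of 3' to 5' signal in 4 control transcripts, a sign of RNA length, was 1.68 to 2.05 on DKO arrays and 1.73 to 2.12 on wild-type arrays.

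Of the 10 genes, Bcl2l11 and Ccng2 fell in DKO cells, and no transcript of the factors passed. Bcl2l11, which encodes the pro-apoptotic protein Bim, fell 5.87-fold on its brightest probe set. Ccng2, a cyclin of cell cycle exit, fell 2.75-fold. Over all tested genes, each read on its brightest probe set, 2.5% fell. Fbxo32, the muscle ubiquitin ligase subunit atrogin-1, was at least 2.92-fold lower at its 1 tested probe set, 1448747_at. That probe set was tested only because its wild-type arrays reached the filter on low values, so it could only be called lower. With no filter it did not pass (limma, adjusted p = 0.0857), while the dimmer 1417522_at did (0.0342). Foxo1, Foxo3, Foxo4, Bcl6, Trib1, Sesn1 and Sesn3 did not pass the main test. With the replicate number as a block, Bcl6 and Sesn3 passed (limma, adjusted p = 0.0243 and 0.0374). The main test was limma on log2 intensity with genotype alone. It used Benjamini-Hochberg adjustment over the 20841 probe sets tested and a threshold of 0.05. In RNA from whole cultures, fewer cells of a type and less RNA per cell cannot be told apart.

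Of the 29 probe sets, 20 were tested, with at least 1 for each of the 10 genes. A probe set was tested if it reached a log2 intensity of 4 on at least 3 of the 6 arrays. The other 9 were dim, with no value above 4.32. Of the 20 tested, 4 reached the filter on the wild-type arrays alone and so could only be lower in DKO; 3 of these passed. Of the other 16, which were measured in both genotypes, 3 passed, all lower in DKO (Bcl2l11 at 2 probe sets and Ccng2). Over all tested probe sets 3.24% passed, 1.93% lower and 1.31% higher in DKO, and of the 20478 measured in both genotypes 1.34% passed as lower. Among the 16 members' probe sets measured in both, DKO arrays lay wholly below wild-type arrays at 5 and wholly above them at 1, where this held for 8.39% and 6.88% of all probe sets measured in both. The 4 that reached the filter on wild-type arrays alone also lay wholly below, a direction fixed by how they entered. Probe sets of 1 gene read the same transcripts and are not replicates. Blocking on the replicate number, 9 of the 20 passed, where 9.57% of all tested probe sets did. Blocking on the batch, 7 passed, where 5.36% did. Both counts include the 4 that reached the filter on wild-type arrays alone, whose direction was fixed by how they entered. The 3 added by the replicate number were Bcl2l11 at a further probe set, Sesn3, lower in DKO, and Bcl6, higher in DKO.

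**Figure D1:**
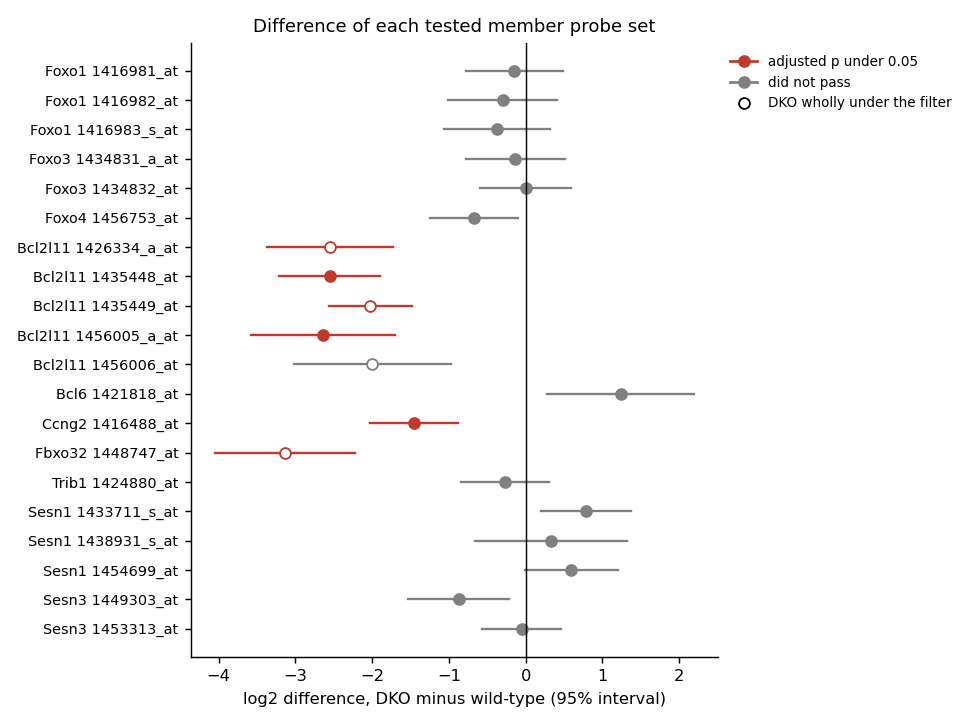
Log2 difference (DKO minus wild-type, x axis) of each of the 20 tested probe sets, with its 95% interval from limma; red marks an adjusted p under 0.05, and open circles mark probe sets whose 3 DKO arrays all lay under the filter, where the fitted difference is no measured fold. The probe sets of Bcl2l11, Ccng2 and Fbxo32 lie left of -1.4, and those of the 3 FoxO factors lie between -0.68 and 0.

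The FoxO factors themselves were well detected on at least 1 probe set each. Foxo3, the factor known in stem cell upkeep and ageing, read 10.41, 10.79 and 10.82 on the DKO arrays at probe set 1434832_at, against 10.31, 10.88 and 10.82 on the wild-type arrays. The groups lay on top of each other, with a difference of -0.00044 and a 95% interval of -0.59 to 0.59. The other tested probe set of Foxo3, 1434831_a_at, averaged 10.73 ± 0.48 on DKO arrays and 10.86 ± 0.11 on wild-type arrays (SD, n = 3 each; limma, adjusted p = 0.925). DKO replicate 1, at 10.17, was the lowest of its 6 arrays, and the difference of -0.13 became 0.14 without that array.

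Foxo1, the insulin-regulated factor of liver and the factor tied to pluripotency, had 3 tested probe sets. At 1416983_s_at it read 8.29, 8.68 and 8.04 in DKO, against 9.25, 8.50 and 8.39 in wild-type cells. These groups overlapped, and the difference of -0.38 had a 95% interval of -1.07 to 0.31 (limma, adjusted p = 0.732). The suffix _s_at marks probe sets whose probes can also match other transcripts. At 1416982_at the difference was -0.30, with an interval of -1.01 to 0.41, and at the dim 1416981_at it was -0.15, with an interval of -0.78 to 0.48. None of these intervals holds a change as large as that of Bcl2l11.

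Foxo4, an X-linked factor that shares the forkhead domain and the Akt sites of Foxo1 and Foxo3, was the factor with the largest difference. Probe set 1456753_at read 9.46, 9.11 and 9.53 in DKO, against 9.81, 9.99 and 10.34 in wild-type cells. All DKO values were under all wild-type values, and arrays of equal number differed by -0.35, -0.87 and -0.81. The mean difference, -0.68 (SE 0.25), missed the threshold (limma, adjusted p = 0.27; 0.085 to 0.575 over 15 alternatives).

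**Figure D2:**
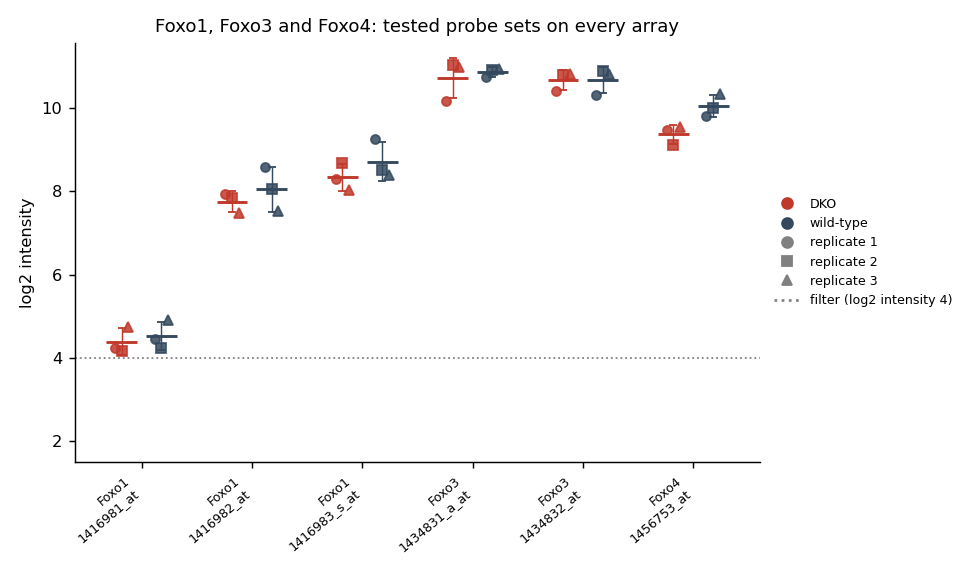
Log2 intensity (y axis) of the 6 tested probe sets of Foxo1, Foxo3 and Foxo4 on each array, DKO in red left of wild-type in dark blue; symbols give the replicate, horizontal bars the mean, error bars the SD (n = 3). The genotypes overlap at Foxo1 and Foxo3, and at Foxo4 the DKO arrays reach 9.53 at most while the wild-type arrays start at 9.81.

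Bcl2l11 is a BH3-only protein that binds and blocks survival proteins of the Bcl-2 family, and it is a textbook direct FoxO target in blood cells and neurons. Its probe set 1435448_at had intensities of 183, 135 and 255 on the DKO arrays, against 1019, 974 and 1282 on the wild-type arrays. The highest DKO array was thus far under the lowest wild-type array. On the log2 scale this was 7.53 ± 0.46 on DKO arrays and 10.08 ± 0.21 on wild-type arrays (SD, n = 3 each), a difference of -2.55 (SE 0.29; limma, adjusted p = 0.00174). The pairs of replicates 1, 2 and 3 differed by -2.48, -2.85 and -2.33. Leaving out any of the 6 arrays kept the call (adjusted p 0.00224 to 0.0247), as did replicates 1 and 2 alone (0.00528), and of 15 alternatives it was lost without moderation of the variances (0.0983).

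The other 4 probe sets of Bcl2l11 ran the same way. Probe set 1456005_a_at read 5.61, 6.85 and 7.29 in DKO, against 8.94, 9.19 and 9.55 in wild-type cells. It fell 6.25-fold (difference -2.64, SE 0.41; limma, adjusted p = 0.01), and DKO replicate 1 was its lowest array. The remaining 3 lay under the filter on all DKO arrays, with DKO intensities of 4 to 10 against 16 to 59 in wild-type cells, so their folds are lower limits. The genotypes did not overlap at any of them, which was fixed by the filter, as they reached it on wild-type arrays alone. Probe set 1426334_a_at was at least 2.06-fold lower and 1435449_at at least 1.18-fold lower. Their fitted differences of -2.54 (limma, adjusted p = 0.00586) and -2.02 (adjusted p = 0.00241) passed but depend on values under the filter. Probe set 1426334_a_at lost its call without DKO replicate 1 (adjusted p = 0.0545), and 1435449_at with a pseudocount of 16 (difference -0.76, adjusted p = 0.0758). Probe set 1456006_at, at least 1.84-fold different, missed the threshold (adjusted p = 0.0508; 0.00078 blocked on the replicate number and 0.0102 blocked on the batch). With no filter on dim probe sets 1435448_at and 1435449_at passed (0.0348 and 0.0158), and the other 3 did not (0.0982 to 0.294).

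The promoter sequence of Bcl2l11 is shown because it holds the letters that FoxO proteins bind. RefSeq (GRCm38.p6) gives 2 starts for the gene in the promoter table, and the first has GTAAACA, the core of the forkhead element, in the 250 bases before it. The window is chr2:128125788-128126037 on the plus strand, written 5′ to 3′ with the match in capitals; the match begins at -227, counted from the start.
Bcl2l11: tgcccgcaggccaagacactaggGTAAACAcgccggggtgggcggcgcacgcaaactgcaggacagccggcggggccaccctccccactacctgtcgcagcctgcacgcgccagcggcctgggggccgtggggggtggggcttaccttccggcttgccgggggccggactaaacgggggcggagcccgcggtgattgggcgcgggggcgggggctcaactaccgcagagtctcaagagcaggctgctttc
GTAAACA and its reverse complement TGTTTAC were searched in windows of 300 bases, 250 before and 50 after each start. They stand in 3.65% of the 32851 windows, and in 2 of the 10 windows of the 7 members in the table. The other is at a start of Sesn1, 23 bases into the transcript. A match is a run of letters and does not show that a FoxO protein bound there in these cells.

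Ccng2 encodes cyclin G2, an unusual cyclin that is high in resting cells and slows the cell cycle. Probe set 1416488_at read 6.17, 6.07 and 5.61 in DKO, against 7.41, 7.61 and 7.20 in wild-type cells. All DKO arrays lay at least 1 log2 unit under all wild-type arrays, and the means were 5.95 ± 0.30 and 7.41 ± 0.21 (SD, n = 3 each). The difference of -1.46 (SE 0.25) passed (limma, adjusted p = 0.0163). The call was lost without DKO replicate 1, DKO replicate 2 or wild-type replicate 2 (adjusted p = 0.0517, 0.0604 and 0.0882), within replicates 1 and 2 alone (0.0596) and with no filter (0.0635), while leaving out single arrays gave differences between -1.57 and -1.29. The second probe set of the gene, 1448364_at, was too dim to be tested, with intensities of 7, 6 and 4 in DKO and 10, 11 and 10 in wild-type cells.

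The promoter of Ccng2 is set beside that of Bcl2l11 because it holds a different FoxO letter run. It has no GTAAACA, but has CAAAACA, the run of the insulin response element, just before the start, at -16. The window is chr5:93267323-93267572 (GRCm38.p6, RefSeq) on the plus strand, with the match in capitals.
Ccng2: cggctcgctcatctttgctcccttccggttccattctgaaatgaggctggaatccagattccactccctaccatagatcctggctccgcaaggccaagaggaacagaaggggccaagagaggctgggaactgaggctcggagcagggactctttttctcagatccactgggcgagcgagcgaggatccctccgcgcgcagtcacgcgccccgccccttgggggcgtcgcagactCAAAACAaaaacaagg
CAAAACA or its reverse complement TGTTTTG stands in 6.28% of all windows, and among the members' 10 windows in that of Ccng2. A window that holds 1 of the runs need not hold the other; they share the letters AAACA. In the windows of Foxo1, Foxo3, Sesn3 and Bcl6 neither run was found.

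Fbxo32 encodes atrogin-1, the substrate-binding part of a ubiquitin ligase that FoxO switches on in wasting muscle. Probe set 1448747_at had intensities of 5, 5 and 6 on the DKO arrays, against 91, 40 and 28 on the wild-type arrays. The DKO values sit at the bottom of the scale, and the wild-type values vary more than 3-fold among themselves, with replicate 1 highest. The gene was at least 2.92-fold lower in DKO. The fitted difference of -3.14 (SE 0.40; limma, adjusted p = 0.00349) depends on values under the filter and is no measured fold. The call was just lost without DKO replicate 1 (adjusted p = 0.0505) and held within replicates 1 and 2 (0.00524). The other 2 probe sets were not tested. They read 5, 5 and 6 in DKO against 20, 15 and 14 in wild-type cells at 1417522_at, and 4, 4 and 4 against 16, 12 and 9 at 1435265_at, without overlap. With no filter on dim probe sets 1417522_at passed (adjusted p = 0.0342), and 1448747_at (0.0857) and 1435265_at (0.0725) did not.

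**Figure D3:**
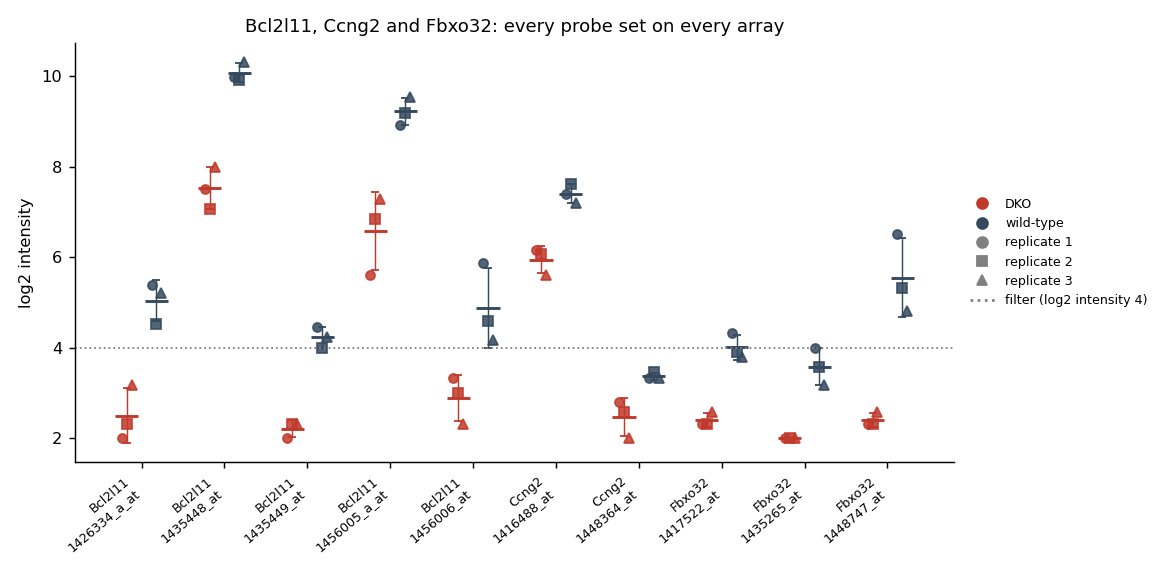
Log2 intensity (y axis) of every probe set of Bcl2l11, Ccng2 and Fbxo32 on each array, DKO in red left of wild-type in dark blue; symbols give the replicate, horizontal bars the mean, error bars the SD (n = 3), and the dotted line the filter at 4. The 3 genes are those with a probe set that passed. In all 10 probe sets the 3 DKO arrays lie below the 3 wild-type arrays. Of these, 4 reached the filter on wild-type arrays alone, which fixed their direction, and 3 were too dim to test. The other 3 were measured in both genotypes, where 8.39% of all such probe sets lay wholly lower in DKO. These 3 are themselves probe sets that passed, so their lack of overlap follows largely from the choice of genes shown. All 3 probe sets of Fbxo32 lie under the filter in DKO.

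Fbxo32 is known from muscle, and muscle markers were therefore read beside it. Of 5 markers 3 were tested and 1 passed: Actc1, cardiac actin, was at least 1.74-fold lower in DKO (fitted difference -2.80; limma, adjusted p = 0.00151). Its intensities were 4, 4 and 4 in DKO against 18, 31 and 39 in wild-type cells. Like Fbxo32, it reached the filter on wild-type arrays alone and could only be called lower. Des and Tnnt2 differed by -0.12 and 0.92 and did not pass. The muscle regulators Myog and Myod1 were under the filter on every array. Markers that did not pass were named after their values were seen. The summed intensity of the 5 markers was 62 to 159 on DKO arrays and 83 to 136 on wild-type arrays. Of 5 tested neural markers, Pax6 fell by 3.47 on the log2 scale (adjusted p = 0.000826) and 4 did not pass (4 fell when blocked on the replicate number), with a summed intensity of 111 to 350 in DKO and 391 to 630 in wild-type cells. Of the 6 trophoblast markers 2 were tested. Cdx2 rose by 4.09 (adjusted p = 9.71e-05), with intensities of 1307 to 2073 in DKO and 99 to 104 in wild-type cells. Eomes differed by 1.24 and did not pass (adjusted p = 0.0787; 0.00734 with the replicate block). Without Cdx2 the other 5 summed to 216 to 318 in DKO and 96 to 188 in wild-type cells. Ascl2 was too dim to test, at 11 to 15 in DKO and 14 to 40 in wild-type cells, and Elf5, Tpbpa and Hand1 were under the filter on every array. None of the 10 embryonic stem cell markers, the 5 tested primitive endoderm markers or the 4 tested fibroblast markers passed by limma (0, 2 and 1 at an unadjusted p under 0.05; 0, 0 and 1 with the replicate block), and the 4 matched blood markers were too dim to test. The primitive endoderm markers summed to 1597 to 2651 in DKO and 529 to 2507 in wild-type cells, where wild-type replicate 3 was the lowest array at each tested marker but Dab2. Gata4, Gata6, Sox17 and Foxa2 differed by 0.95, 1.05, 1.19 and 1.26. Dab2 differed by -1.45 (adjusted p = 0.305) and passed within replicates 1 and 2 alone (0.00579). The fibroblast markers summed to 1184 to 2027 in DKO and 733 to 1448 in wild-type cells, and the embryonic stem cell markers to 29261 to 32015 and 29648 to 31672. The part of these cell types in the falls of Bcl2l11 and Ccng2, and in the low DKO values of Fbxo32, was not tested.

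Trib1, a pseudokinase that brings proteins such as C/EBP alpha to a ubiquitin ligase, did not pass. Probe set 1424880_at read 6.98, 6.81 and 7.42 in DKO, against 7.51, 7.32 and 7.17 in wild-type cells. The groups overlapped, with a difference of -0.27 and a 95% interval of -0.84 to 0.31 (limma, adjusted p = 0.792). Its second probe set was dim.

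Bcl6, a transcriptional repressor of germinal centre B cells that FoxO induces in blood cells, did not pass. Probe set 1421818_at read 7.51, 8.93 and 8.89 in DKO, against 6.97, 6.88 and 7.77 in wild-type cells. DKO replicate 1 lay under wild-type replicate 3, but arrays of equal number differed by 0.54, 2.05 and 1.12, always higher in DKO. The mean difference, 1.24 (SE 0.42), had an adjusted p of 0.214 by limma, and passed when blocked on the replicate number (0.0243). The second probe set of Bcl6, 1450381_a_at, was too dim to be tested, with intensities of 9, 13 and 12 in DKO and 7, 8 and 8 in wild-type cells.

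The sestrins are stress proteins that restrain mTORC1 and limit oxidative damage, and the 2 in the set, Sesn1 and Sesn3, did not pass. Sesn1 read 8.46, 8.17 and 7.73 in DKO at probe set 1433711_s_at, against 7.38, 7.26 and 7.37 in wild-type cells. Every DKO array was above every wild-type array, by a mean of 0.79 (SE 0.26; limma, adjusted p = 0.188). At 1454699_at the difference was 0.59, with an interval of -0.01 to 1.20 and overlapping groups. At 1438931_s_at DKO replicate 1 read 8.19 and the other 2 DKO arrays 9.99 and 9.79, on both sides of the wild-type arrays at 8.92 to 9.03, and the interval ran from -0.65 to 1.32.

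Sesn3 read 6.66, 6.69 and 7.14 in DKO at probe set 1449303_at, against 7.21, 7.96 and 7.94 in wild-type cells. The groups did not overlap, by a narrow gap between DKO replicate 3 and wild-type replicate 1. The mean difference, -0.87 (SE 0.29), missed the threshold (limma, adjusted p = 0.194), and passed when blocked on the replicate number (0.0374). Its second probe set, 1453313_at, lay at the filter in both genotypes and differed by -0.05. Sesn1 and Sesn3 were not tested against each other.

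**Figure D4:**
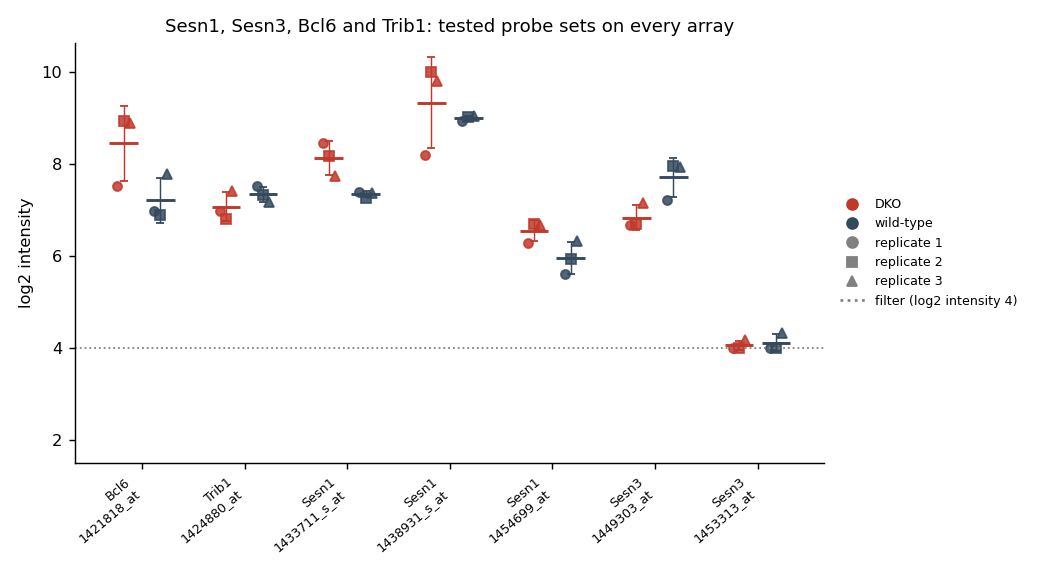
Log2 intensity (y axis) of the tested probe sets of Bcl6, Trib1, Sesn1 and Sesn3 on each array, DKO in red left of wild-type in dark blue; symbols give the replicate, horizontal bars the mean, error bars the SD (n = 3). The DKO arrays lie wholly above the wild-type arrays at Sesn1 1433711_s_at and wholly below them at Sesn3 1449303_at, and overlap them at the other 5 probe sets.

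Further FoxO targets were read on the brightest tested probe set of each gene. Of 45 listed, 42 matched a probe set of a single gene and 31 were tested; 1 rose, 0 fell and 30 did not pass, where 1.64% of all tested genes rose and 2.5% fell. The median difference was -0.14, against -0.0025 over all 10496 tested genes. Klf15, a zinc-finger regulator of amino acid and glucose metabolism, read 5.43, 5.52 and 5.43 in DKO, against 4.09, 3.81 and 4.46 in wild-type cells. The DKO arrays were all higher, and the rise of 1.34 (SE 0.25) passed (limma, adjusted p = 0.0218), but when single arrays were left out it passed only without wild-type replicate 3 (adjusted p 0.0218 to 0.112), and it passed in 6 of 14 alternatives in all. The next in size was Cdkn1b, named after its values were seen, which encodes the cyclin-dependent kinase inhibitor p27. It read 8.89, 8.80 and 9.80 in DKO, against 10.30, 10.03 and 10.66 in wild-type cells, without overlap. Its difference of -1.16 did not pass (adjusted p = 0.118) and passed when blocked on the replicate number (0.00794) or the batch (0.0176). At an unadjusted p under 0.05 by limma stood 6 of the 31, Klf15 and Cdkn1b among them. The share of all tested genes at that level was not computed, so no count at that level can be read as many or few. The others of the 6, named afterwards, did not pass. Gadd45a and Ulk2 differed by -0.76 and -0.89, and Ccnd1 and Cdkn1a by 0.86 and 0.61, all without overlap. Of all probe sets measured in both genotypes, 8.39% lay wholly lower and 6.88% wholly higher in DKO. Ulk2 reached the filter on wild-type arrays alone, which fixed its direction and its lack of overlap. The insulin-response targets Irs2 and Insr and the antioxidant targets Sod2 and Cat, also named afterwards, differed by -0.19, 0.21, -0.16 and -0.03.

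No gene on a list of FoxO regulators passed by limma without a block. The list did not hold Trib2, which is read below as a relative of Trib1. Of 38 listed regulators (PI3K and Akt genes, 14-3-3 genes and enzymes that mark FoxO), 36 matched and were tested, and on the brightest probe set of each 0 passed by limma, by the replicate block and without moderation, with 1 at an unadjusted p under 0.05. Over all 94 tested probe sets of these genes 0 passed by limma and 1 with the replicate block. That was 1457936_at of Mapk8, named after its values were seen, which encodes the stress kinase JNK1. Its DKO arrays all lay below its wild-type arrays, with a difference of -0.94 (limma, adjusted p = 0.182; 0.02 with the block), while its brightest probe set differed by -0.24. Their differences ran from -0.98 to 0.58, with a median of -0.07. Sfn, the 14-3-3 sigma gene, had the largest, with a mean of 6.50 on DKO arrays and 7.48 on wild-type arrays (adjusted p = 0.304).

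Close relatives of the members were also read. Of the 5 tested (Sesn2, Ccng1, Trib2, Trib3 and Bcl6b) 1 fell. Trib2, a pseudokinase related to Trib1 and described in human melanoma as a repressor of FoxO3, read 4.25, 5.21 and 5.70 in DKO, against 7.58, 7.62 and 7.02 in wild-type cells. The groups lay more than 1 log2 unit apart, and the gene fell 5.11-fold (difference -2.35, SE 0.38, limma, adjusted p = 0.0112). The call was lost without wild-type replicate 2 (adjusted p = 0.0555), with no filter (0.135) and without moderation (0.214). It rests on the 1 tested probe set of the gene, 1426640_s_at, whose suffix marks probes that can also match other transcripts. The other 4, named after their values were seen, did not pass. Bcl6b, a relative of Bcl6, differed by -1.72 with overlapping groups (adjusted p = 0.262; 0.00985 when blocked on the replicate number). Ccng1 and Sesn2, relatives of Ccng2 and the sestrins, differed by -0.28 and -0.17, and Trib3 by 0.07.

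**Figure D5:**
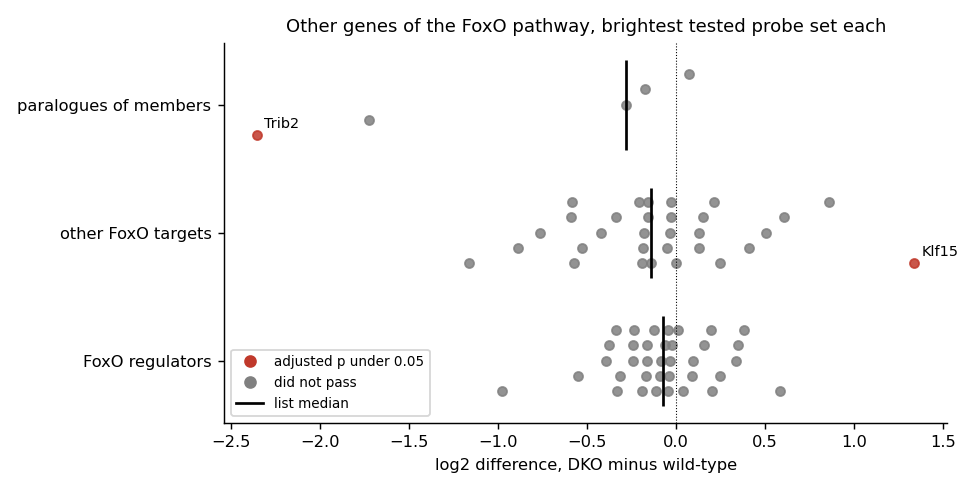
Log2 difference (DKO minus wild-type, x axis) of each tested paralogue of a member, other FoxO target and FoxO regulator, on its brightest tested probe set; red marks an adjusted p under 0.05 and black bars the list medians, and points are spread vertically only for legibility. Trib2 at -2.35 and Klf15 at 1.34 are the genes that passed, and the regulators lie between -0.98 and 0.58.

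The genes whose levels ran most like those of Bcl2l11 over the 6 arrays were Gpr161, Kndc1 and Pax6, with Pearson correlations of 0.999, 0.995 and 0.994 to probe set 1435448_at among 10495 genes. The arrays share their genotype and batch, so these values describe the arrays only. Gpr161 averaged 3.73 ± 0.16 on DKO arrays and 4.58 ± 0.10 on wild-type arrays, close to the filter, and did not pass (limma, adjusted p = 0.0962). Gpr161 reached the filter on wild-type arrays alone, which fixed its direction. Kndc1 was at least 1.69-fold lower in DKO (fitted difference -1.18; limma, adjusted p = 0.0264), with all DKO arrays under the filter, so it could only be called lower. It passed in 1 of the 6 settings with an array left out (adjusted p 0.0381 to 0.11), missed the threshold within replicates 1 and 2 (0.0856) and passed in 6 of 14 alternatives in all.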

How the data were processed

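Total RNA was amplified from 25 ng, labelled with biotin and hybridised to 6 arrays, per the labels' protocols. The authors deposited 1 intensity per probe set and array, as whole numbers of at least 1, reaching 12861; scale and normalization are not stated and they were taken as linear. The submitters' processing notes name limma 2.16.5, GCRMA 2.14.1, GCOS and R 2.8.0 without roles. No genome build and no detection flags were used. The number of arrays limits the precision.

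Intensities were converted to log2 with no pseudocount. Probe sets at a log2 value of at least 4 (intensity 16) on at least 3 of 6 arrays, controls excluded, were tested by the two-sided moderated test of limma 3.58.1 (R 4.3.3), adjusted over all 20841. Genes outside the set were read on their brightest tested probe set. A genotype wholly under the filter gives only a limit: the brighter mean against the higher of 4 and each measured value. An adjusted p beside such a limit tests the fitted difference and not the limit. Gene names came from the platform annotation and RefSeq (GRCm38.p6), 34958 with 1 gene and 932 with several; promoters came from RefSeq. When tested on simulated data of 20841 probe sets with the means and moderated SDs of this comparison, the procedure recovered 11.9%, 95.5% and 100% of probe sets shifted by 1, 2 and 3 log2 units. The simulated arrays were independent of each other, so the spread that arrays of equal replicate number share was left out.

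The members and lists were chosen with earlier results of these data known. Named genes are all members, Gsk3a, Gsk3b, Pou5f1, Sox2 and Nanog, list genes that passed (or the largest difference where none did), markers that passed, and the 3 genes most like the member probe set of lowest adjusted p; genes outside this rule are marked in the text as named after their values were seen. Arrays shared at most 1.79% identical values. The deviations from the genotype mean correlated at 0.427, 0.354 and 0.595 between DKO and wild-type arrays of replicate 1, 2 and 3, so the replicate numbers in the titles were taken to pair the samples. The main fit used genotype alone and leaves this pairing out. In 1 of the alternatives the numbers entered as a block, and the 675 probe sets that passed became 1995. In all 15 alternatives were run, 1 of them with replicate 3 as a batch, which was inferred from spike-in signal.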

Additional observations from a re-analysis of the deposited data

How the results depend on the processing

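The 23 main probe set differences (the members' 20 tested probe sets, Trib2, Klf15 and Gsk3a) and 4 counts of calls were recomputed under 15 alternatives, or 14 for probe sets too dim for the higher filter: the replicate number as a block, replicate 3 as a batch block (inferred from the spike-in signal), replicates 1 and 2 alone, 6 fits that each left out an array, no filter, a filter at a log2 value of 6, quantile normalization, a pseudocount of 16, an intensity trend and no moderation. List medians, correlations and motif matches were not recomputed. Of 338 single probe set values, 294 kept their direction and their side of the threshold, 28 were no longer past it, 8 came past it and 8 changed direction. Those 8 concern differences near 0 that never passed: with an array left out, Foxo1 1416981_at ran from -0.33 to 0.037, Foxo3 1434831_a_at from -0.28 to 0.14, Sesn3 1453313_at from -0.11 to 0.057 and Foxo3 1434832_at from -0.18 to 0.13, and the last was 0.0013 in replicates 1 and 2 alone and 0.044 with quantile normalization. The 675 probe sets that passed became 1995 with the replicate block, 1117 with the batch block, 440 in replicates 1 and 2 alone, 373 with the filter at 6, 31 without moderation and 290 to 604 with an array left out. The 6 probe sets of the members became 9 with the replicate block, 3 with no filter, 3 with the filter at 6, where dim probe sets are not tested, 5 with the pseudocount, 0 without moderation and 3 to 7 with an array left out, 3 being the count without DKO replicate 1. The 1 other FoxO target became 2 with either block, 0 with no filter, with the filter at 6, with the pseudocount and without moderation, and 0 to 1 with an array left out. The FoxO regulators, on their brightest probe sets, stayed at 0 under the 15 alternatives. The block changed no other call among the members than those given with their values. The cause of the other shifts was not tested. Whole-number values make differences under the filter coarse.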
